A study of Mus musculus with 4 samples.

Results

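The Mondo genes were read out in mouse embryonic stem cells with several well-known glucose-responsive targets and related genes, as 9 genes chosen by symbol. They comprise the transcription factor genes Mlxipl, Mlxip and Mlx, the alpha-arrestin genes Txnip, Arrdc4 and Arrdc3, the enzyme genes Pklr and Tkt, and the transcription factor gene Klf10. All 9 were among the 32592 genes of the deposited table, and all 9 passed the filter on low counts that left 14890 genes to be tested. Mlxipl was chosen because it stood among the largest rises of this same comparison, so its values are given as a description with no test. The other 8 were named for what they do, with earlier results of these data known.

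The cells were of the CCE line, of strain 129/Sv, cultured feeder-free in high-glucose serum medium with leukemia inhibitory factor. In the group titled KD (knockdown), 2 samples had received short hairpin RNAs (shRNAs) against Eif4a2, named sheIF4A2-2 and sheIF4A2-3, and in the group titled Con (control), 2 samples had received the control shRNAs shLuc and shEV. Which hairpin went into which sample is not given in the sources used here, and every sample was taken through 3 days of puromycin (1 µg/mL) and harvested on day 4.5. Polyadenylated RNA was sequenced as single-end reads of 100 bp. No label states that samples of a group were separate cultures, so a p-value here reflects how far apart these few libraries lay. That distance may be purely technical, or it may hold differences between the hairpins of a group. These cannot be told apart.

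MLXIPL (ChREBP) and MLXIP (MondoA) are basic helix-loop-helix leucine zipper proteins that pair with MLX and bind carbohydrate response elements when hexose phosphates accumulate. ChREBP is best known in liver, fat and pancreatic beta cells, where it drives genes of glycolysis and fat synthesis, and MondoA is the broadly expressed paralog. TXNIP and ARRDC4 are their classic targets, and both proteins in turn restrain glucose uptake, which closes a feedback loop.

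Libraries held between 4604200 and 13681765 recovered reads, and the shallowest was control 2, in which 3 reads were worth 0.679 normalized counts. The normalized count is the authors' read count scaled by an effective library size. Eif4a2 stood at 752.5 and 814 normalized counts in the KD libraries, against 530.6 and 379 in the controls (log2 change 0.80, SE 0.15, limma adjusted p = 0.014; 0.0581 without a variance trend). The targeted transcript thus goes against its label. The name KD library stands for that label alone, and each direction below is KD minus control as labelled. Stem cell markers were abundant in all libraries, with Pou5f1 at 1882 ± 58.3 normalized counts in the KD libraries and 2197 ± 153 in the controls (SD, n = 2 each). Pou5f1 was not called, while of the 8 stem cell markers 3 were called lower and 0 higher (median log2 change -0.31). Of all genes tested, 12.4% were called lower. DESeq2, which called 14.8% of all genes, called 4 of the 8 markers lower and 0 higher. The hepatocyte genes Alb and Ttr and the beta cell genes Ins1, Ins2 and Iapp had 0 reads in every library. Other markers of these types, Apob, Mafa and Pdx1 among them, had reads in every library and are given below.

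Promoter windows from RefSeq (build GRCm38.p6, from 250 bases before to 50 bases after a gene's start) were matched by symbol for 8 of the 9 members. They are shown for Mlxipl, the member whose level stood apart, and for Txnip and Pklr, the targets with a window that holds a paired element. The search, on both strands, used the E box CACGTG and pairs of E box-like elements 5 bases apart, either inverted (CACGNG, 5 bases of any kind, CNCGTG) or in tandem (CACGNG, 5 bases of any kind, CACGNG). Capitals mark the matches. The forms of the pairs were written down after the windows had been looked at. Of 32851 windows of all genes, 7.15% held an E box, 0.0457% an inverted pair and 0.0487% a tandem pair, and no match of these windows overlapped another. The windows are 5′ to 3′ on the plus strand.
Mlxipl upstream start, chr5:135089640-135089939: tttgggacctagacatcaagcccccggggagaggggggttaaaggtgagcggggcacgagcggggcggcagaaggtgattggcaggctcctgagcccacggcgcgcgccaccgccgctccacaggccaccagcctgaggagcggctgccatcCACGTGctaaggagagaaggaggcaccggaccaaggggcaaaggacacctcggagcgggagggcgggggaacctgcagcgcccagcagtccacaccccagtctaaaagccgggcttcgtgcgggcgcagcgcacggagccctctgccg
Mlxipl downstream start, chr5:135106641-135106940: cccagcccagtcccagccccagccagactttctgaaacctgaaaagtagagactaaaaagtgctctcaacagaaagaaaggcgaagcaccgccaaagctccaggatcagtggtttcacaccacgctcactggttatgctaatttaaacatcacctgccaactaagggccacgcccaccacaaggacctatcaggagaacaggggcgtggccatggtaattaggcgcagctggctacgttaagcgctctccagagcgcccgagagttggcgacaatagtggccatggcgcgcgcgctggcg
Txnip, chr3:96557707-96558006: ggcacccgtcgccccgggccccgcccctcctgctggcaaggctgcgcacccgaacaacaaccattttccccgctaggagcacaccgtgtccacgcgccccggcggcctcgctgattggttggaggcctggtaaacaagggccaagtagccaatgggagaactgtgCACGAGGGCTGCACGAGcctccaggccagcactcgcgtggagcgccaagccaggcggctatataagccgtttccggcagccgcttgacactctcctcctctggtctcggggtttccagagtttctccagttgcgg
Pklr, chr3:89136373-89136672: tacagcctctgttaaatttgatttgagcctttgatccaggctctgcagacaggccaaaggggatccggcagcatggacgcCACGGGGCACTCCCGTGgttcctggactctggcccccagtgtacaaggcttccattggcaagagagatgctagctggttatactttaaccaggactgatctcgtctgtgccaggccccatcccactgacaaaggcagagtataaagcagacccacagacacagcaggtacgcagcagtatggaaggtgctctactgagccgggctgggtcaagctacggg

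RefSeq gives Mlxipl 2 starts that lie 17001 bases apart. The upstream window held an E box and the downstream window none of the 3 motifs. An upstream start of this gene is known in mouse tissues to give a shorter isoform that is itself a target of ChREBP, and counts per gene do not tell starts apart. The Txnip window held the tandem pair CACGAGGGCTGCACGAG and the Pklr window shown the inverted pair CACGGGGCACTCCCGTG. A second Pklr window, at chr3:89135892-89136191, held none of the 3 motifs. Single E boxes lay in the windows of Arrdc4 and Mlx, and the windows of Mlxip, Arrdc3 and Tkt held none of the 3 motifs. A match is a description of letters and not a bound site.

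Mlxipl was the member with the widest gap between the groups. It stood at 18.5 and 20.6 normalized counts in the KD libraries, from 208 and 264 reads, against 5.81 and 4.3 in the controls, from 79 and 19 reads. Both KD libraries lay above both controls. The means were 19.5 ± 1.48 and 5.06 ± 1.07 (SD, n = 2 each), a ratio of 3.86. On the log2(value + 1) scale of the fit the difference was 1.77 (SE 0.19), or 3.41-fold. That was rank 22 of all 14890 genes tested. It was rank 9 of 10919 genes with a mean log2 value of at least 3, between Mir291b at 1.77 and Slc22a17 at 1.74. The control levels of Mlxipl alone would not reach that cut. In the authors' deposited table its log2 fold change was 1.87.

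In bulk RNA, more cells that express Mlxipl and more RNA per cell cannot be told apart. The Mlxipl transcripts have a GC content of 57.5%, which puts the gene in the richest of 5 equal bins of tested genes by GC content. In that bin the median log2 change was 0.18, with 19.7% of genes called higher and 5.67% called lower. After correction of each library for GC content the Mlxipl difference was 1.61, and without any one library it lay between 1.59 and 1.95. An antisense gene, Gm43500, shares 235 bases of exon with Mlxipl and was not analysed here.

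**Figure D1:**
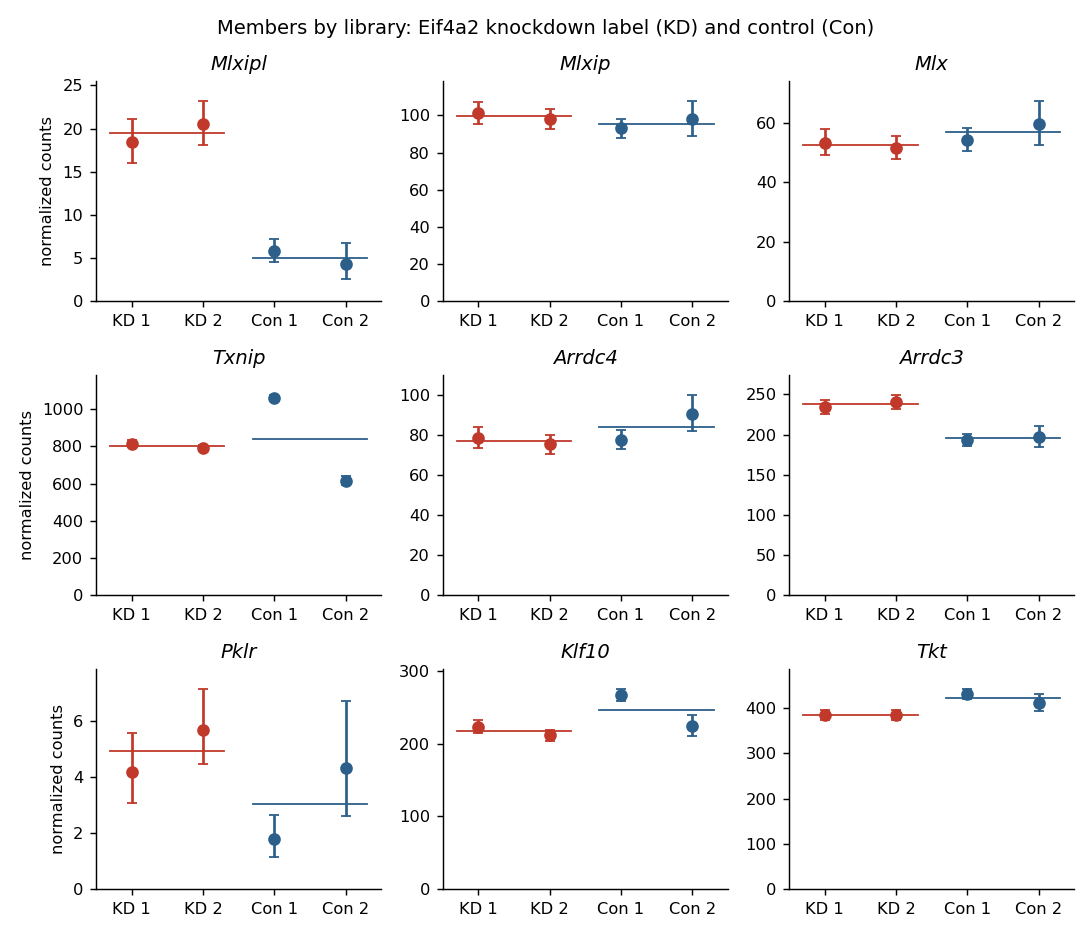
Normalized counts of the 9 members in each library, with a separate axis from 0 for each gene; points are KD libraries (red) or control (Con, blue), bars are exact 95% Poisson intervals (counting error only) and lines are group means. Mlxipl stands at 18.5 and 20.6 in the KD libraries against 5.81 and 4.3 in the controls, while the Txnip controls lie on both sides of the KD libraries.

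The paralog and the shared partner stayed close to their control levels. Mlxip, which encodes MondoA, stood at 101.2 and 97.8 normalized counts in the KD libraries, against 93 and 98 in the controls, and the groups overlapped (log2 change 0.06, SE 0.08, limma adjusted p = 0.641). Its 95% interval, as a ratio, ran from 0.908 to 1.2. Mlx, the obligate partner of both Mondo proteins, stood at 53.4 and 51.7 in the KD libraries, against 54.3 and 59.7 in the controls (log2 change -0.11, SE 0.10, limma adjusted p = 0.437). The groups of Mlx did not overlap, but the gap was narrow, and the interval of the ratio ran from 0.786 to 1.09. Its direction turned with library size as the only scaling (log2 change 0.0076). Mlx shares 385 bases of exon with Psmc3ip on the opposite strand, and without a stated strand setting the source of a shared read is unknown.

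Because Mlxip moved so little, the balance of the 2 Mondo paralogs differed between the groups. Per kb of exon, Mlxip was at 3.65 and 3.16 times the level of Mlxipl in the KD libraries, against 10.6 and 15.2 times in the controls. Mlxip was the more abundant transcript per kb in each of the 4 libraries. This ratio carries the Mlxipl difference that chose the gene, so it is a description with no test.

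The alpha-arrestin genes did not move as a set. Txnip, whose protein binds thioredoxin and promotes removal of glucose transporters from the cell surface, stood at 815.7 and 791.6 normalized counts in the KD libraries, against 1060 and 616.2 in the controls. The KD libraries lay close together, between the controls. The means were 803.6 ± 17 and 838.1 ± 314 (SD, n = 2 each), with a log2 change of -0.008 (SE 0.22, limma adjusted p = 0.983). Its interval, from 0.692 to 1.43 as a ratio, is wide for a gene with 2723 reads or more in each library. Without control 1 the log2 change was 0.38 and without control 2 it was -0.40. The sign was also positive with library size only, with upper-quartile scaling, after GC correction and without knockdown 2.

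The gap between the Txnip controls was 0.78 on the log2 scale, larger than that of 97.5% of the 120 tested genes of like level (mean log2 value within 0.5). The antisense gene Gm15441 shares 606 bases of exon with Txnip and had the same order of libraries, at 242.2 and 237.3 normalized counts in the KD libraries, against 314.7 and 185.6 in the controls. Txnip has 3123 bases of exon in all. Without a stated strand setting, the source of a read in the shared bases is unknown. Over all tested genes the median gap was 0.095 between the KD libraries and 0.198 between the controls.

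Arrdc4, the other glucose-induced alpha-arrestin gene, stood at 78.7 and 75.5 normalized counts in the KD libraries, against 77.9 and 91 in the controls. The groups overlapped and the test did not pass (log2 change -0.13, SE 0.10, limma adjusted p = 0.405). Arrdc4 was higher in control 2 than in control 1, the opposite of Txnip. Without control 1 its log2 change was -0.24.

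Arrdc3, an alpha-arrestin that traffics beta-adrenergic receptors, was the member that passed the test. It stood at 234.4 and 240.8 normalized counts in the KD libraries, against 193.1 and 197.3 in the controls, and the groups did not overlap. The means were 237.6 ± 4.56 and 195.2 ± 2.97 (SD, n = 2 each), a rise of 1.22-fold (log2 change 0.28, SE 0.08, limma adjusted p = 0.0381). Its adjusted p was 0.0337 in edgeR but 0.0697 in DESeq2, 0.0533 with no filter on low counts, 0.125 without a variance trend, 0.279 without knockdown 1 and 0.406 without knockdown 2. In the authors' deposited table it was 0.331. Its transcripts are poor in GC (40.9%), in the poorest of the 5 GC bins, where the median log2 change was -0.14, and after GC correction its log2 change was 0.44.

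**Figure D2:**
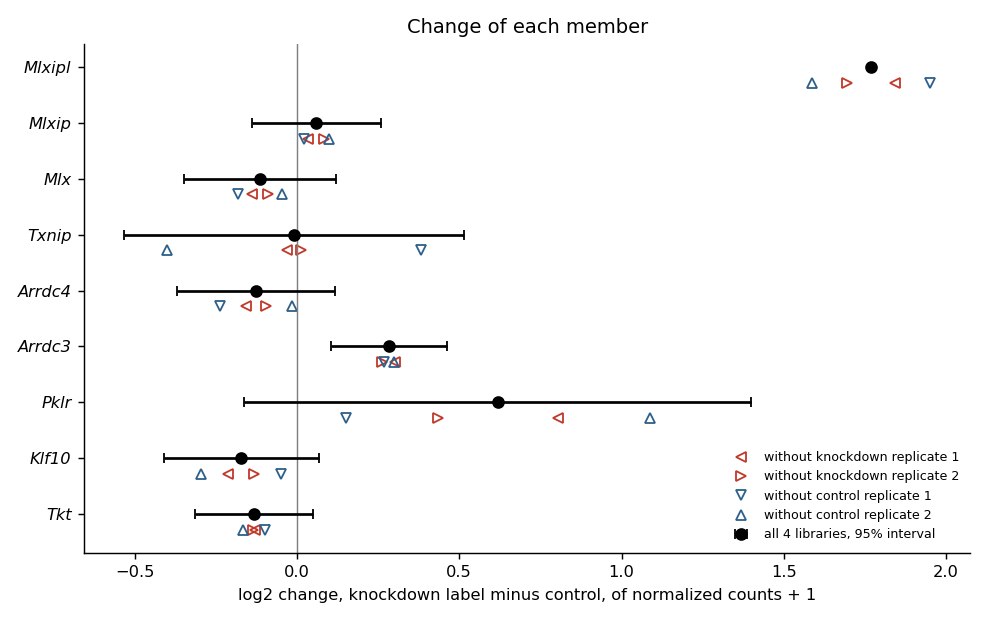
Log2 change of each member (horizontal axis, KD libraries minus controls, of normalized counts + 1), as the value over all 4 libraries (black) with its 95% limma interval, which is left out for Mlxipl, and the values without each library (open triangles). The Mlxipl values lie between 1.59 and 1.95, and the Txnip value is 0.38 without control 1 and -0.40 without control 2.

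The enzyme genes and Klf10 did not pass the test. Pklr, the pyruvate kinase of liver and red cells and a textbook ChREBP target, was low, at 4.17 and 5.68 normalized counts in the KD libraries, from 47 and 73 reads, against 1.77 and 4.3 in the controls, from 24 and 19 reads. Control 2 lay between the KD libraries, so the groups overlapped (log2 change 0.62, SE 0.33, limma adjusted p = 0.212). Its interval, from 0.894 to 2.64 as a ratio, includes no difference and a doubling alike at this depth. The log2 change was 1.09 without control 2 and 0.15 without control 1. Pklr shares 711 bases of exon with Hcn3, an ion channel gene on the opposite strand, which was at 9.94 and 11.1 in the KD libraries against 5.52 and 6.11 in the controls (log2 change 0.76, limma adjusted p = 0.026). Pklr has 3236 bases of exon in all. Without a stated strand setting, the source of a read in the shared bases is unknown.

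Tkt encodes transketolase of the pentose phosphate pathway, whose sugar phosphates activate ChREBP. It stood at 384.5 and 385.4 normalized counts in the KD libraries, against 432.4 and 412.1 in the controls, a gap that did not pass (log2 change -0.13, SE 0.08, limma adjusted p = 0.246). Klf10, a zinc finger repressor known as a ChREBP target in liver and as an early target of transforming growth factor beta, stood at 223.3 and 211.3 in the KD libraries, against 266.9 and 224.7 in the controls (log2 change -0.17, SE 0.10, limma adjusted p = 0.252). In both genes the groups did not overlap and the KD libraries were lower. The intervals as ratios ran from 0.805 to 1.03 for Tkt and from 0.752 to 1.05 for Klf10. Without control 2 the log2 changes were -0.17 for Tkt and -0.30 for Klf10.

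Over the 8 members other than Mlxipl, 1 was called by limma, Arrdc3, against 23.0% of all 14890 genes tested. Of the 8, 1 had an unadjusted p below 0.05, against 38.8% of all genes. Separated groups were found in 4 of the 8, against 66.8% of all genes. The median log2 change of the 8 was -0.06, beside -0.01 for all genes. The edgeR test on recovered reads, which called 25.1% of all genes, called Arrdc3 alone of the 8. DESeq2 called 14.8% of all genes, and Arrdc3 was not among them.

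Per kb of exon, the level of the members kept nearly the same order in each library. Txnip led at 257.3 in the KD libraries and 268.4 in the controls (means, normalized counts per kb), followed by Klf10 (KD mean 52, control mean 58.8) and Tkt (KD mean 52.3, control mean 57.4), which changed places between libraries. Arrdc3 came next (KD mean 37.9, control mean 31.2), then Mlx (KD mean 26.3, control mean 28.5), Arrdc4 (KD mean 19.1, control mean 20.9) and Mlxip (KD mean 12, control mean 11.5). Mlxipl, at 3.52 in the KD libraries and 0.913 in the controls, and Pklr, at 1.52 in the KD libraries and 0.937 in the controls, were the lowest. Pklr lay below Mlxipl in 3 libraries and above it in control 2. The order is otherwise shared by the 4 libraries, with Txnip, Arrdc3, Mlx, Arrdc4 and Mlxip in fixed places.

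**Figure D3:**
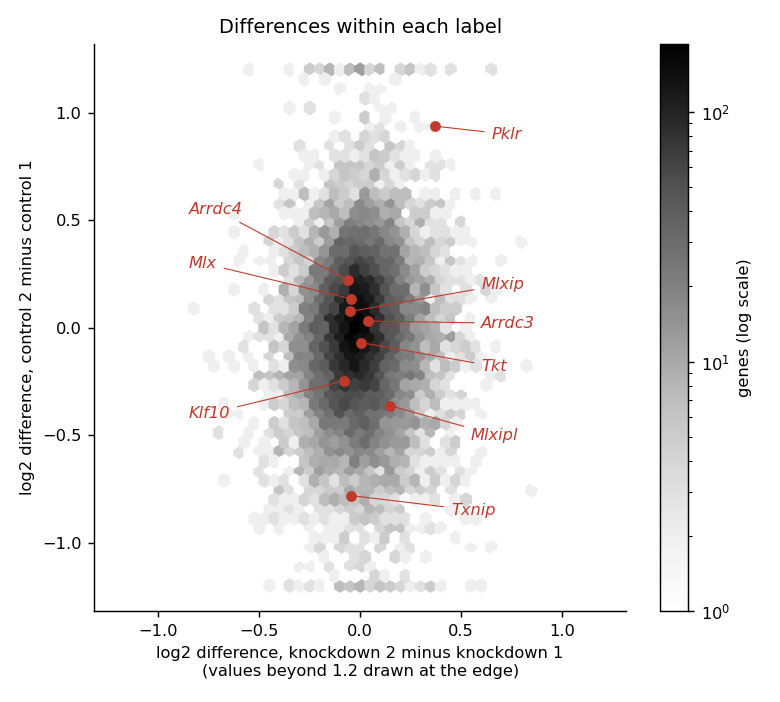
Log2 difference between the libraries of each label, knockdown 2 minus knockdown 1 (horizontal) and control 2 minus control 1 (vertical), for all tested genes (grey, shaded by number on a log scale) and the 9 members (red); genes beyond the plotted range are drawn at its edge. Txnip lies low, at -0.78 between the controls, and Pklr high, at 0.94, while the other members lie nearer to the middle.

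Among the genes whose centred log2 values over the 4 libraries were most like those of Mlxipl, of 10045 compared, were Cox6b2, Trank1, Slc22a17 and Gprc5c. Their root mean square differences from Mlxipl lay between 0.107 and 0.12. Cox6b2, the testis form of a cytochrome c oxidase subunit, stood at 66.6 and 79.4 normalized counts in the KD libraries, against 26.1 and 21.5 in the controls. With 4 libraries in 2 groups, likeness says little more than that a gene was higher by about as much.

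The surroundings of the members were read in 11 gene lists with 163 tested genes, none of them a member. The list of chromosome 5 neighbours of Mlxipl, with 23 of these genes, was chosen by position and not by pathway. Of the 163 genes, 20 were higher, 28 were lower and 115 did not pass, a called share of 29.4% against 23.0% of all genes. Of all genes, 10.5% were higher and 12.4% lower. The median log2 change of the 163 was -0.01, the same as for all genes. The called share was 50% in the pentose phosphate pathway, 40% in Mondo regulators, 35.3% in ChREBP targets and 30.8% in Krüppel-like factors. In the other lists it lay between 20% and 26.7%. The called genes numbered 18 without knockdown 1, 12 without knockdown 2, 95 without control 1, 82 without control 2 and 22 without a variance trend. The lists were chosen with earlier results of these data known, and each is described by its counts alone. Unless called a ratio of means, fold sizes in the lists are from the log2(value + 1) scale of the fit. That scale understates changes of low genes.

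Among the other factors of the network, 2 of 10 were lower and 0 higher in limma, as in edgeR, in DESeq2 and at an unadjusted p below 0.05 (median -0.17). Myc, which shares E boxes with the Mondo factors through its partner Max, fell to 69 ± 1.17 normalized counts in the KD libraries, against 114.4 ± 30 in the controls (log2 change -0.70, limma adjusted p = 0.0268), a change of -0.43 without control 2. Mga, a large repressor that pairs with Max, fell 1.37-fold. With library size only, 1 of the 10 was higher and 2 lower. Of 15 genes whose proteins are known to hold, export, modify or co-activate Mondo factors, 2 were higher and 4 lower in RNA (median -0.22, and 2 higher and 1 lower with library size only). The 14-3-3 gene Sfn rose 2.05-fold and Ogt, the gene of the transferase that adds O-linked N-acetylglucosamine, 1.44-fold. Prkaa2, the gene of a catalytic subunit of AMP-activated kinase, fell 1.77-fold and Ywhaz, another 14-3-3 gene, 1.27-fold. The Prkaa2 call held in each alternative run. Mga, Ogt and Ywhaz did not pass without knockdown 1 or knockdown 2, Myc did not without knockdown 2, and Myc, Mga, Ogt, Sfn and Ywhaz did not without a variance trend. Ywhaz also did not with library size only.

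Of 9 tested arrestins and NEDD4-type ligases, 1 was higher and 1 lower (median 0.07). Arrdc2, a further alpha-arrestin, rose 1.61-fold, to 22.6 ± 2.72 normalized counts in the KD libraries against 13.6 ± 1.34 in the controls, and the ubiquitin ligase gene Wwp2 fell 1.45-fold. Neither passed without knockdown 1 or knockdown 2, nor did Arrdc2 after GC correction. Of 12 genes of thioredoxins, their reductases and peroxiredoxins, 3 fell and 0 rose in limma under each scaling and in edgeR and DESeq2, and 4 were lower and 0 higher at an unadjusted p below 0.05 (median -0.05 as deposited and 0.07 with library size only). The called share, 25%, is near the 23.0% of all genes. All 3 were peroxiredoxin genes, while the thioredoxin genes Txn1 (log2 change 0.04) and Txn2 (log2 change 0.07) were not called. The mitochondrial Prdx3 fell 2.32-fold, to 15.5 ± 2.5 in the KD libraries against 37.2 ± 1.09 in the controls (SD, n = 2 each; limma adjusted p = 0.00443), Prdx1 1.48-fold and Prdx6 1.31-fold. Prdx6 did not pass without knockdown 1, knockdown 2 or a variance trend, and Prdx1 did not without knockdown 2.

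The next list held 15 tested genes of sugar transporter families and of glucose phosphorylation and its reversal. Of these, 3 were higher, 1 was lower and 11 did not pass (median 0.30, and 0.39 with library size only). The called share, 26.7%, is near the 23.0% of all genes. The glucose transporter gene Slc2a1 rose 1.27-fold, to 1395 ± 84.9 normalized counts in the KD libraries against 1102 ± 85.9 in the controls (limma adjusted p = 0.0471), and the hexokinase gene Hk1 rose 1.45-fold (log2 change 0.54, and 0.34 without control 2). Hk2, the hexokinase of many growing cells, fell 1.43-fold, to 363.9 ± 34.6 in the KD libraries against 521.1 ± 10.3 in the controls (limma adjusted p = 0.0114). Hkdc1 was called higher from few reads, 18 and 22 in the KD libraries and 3 and 2 in the controls. It passed the filter on low counts only through the KD libraries. The liver genes Slc2a2 and G6pc had 0 reads in every library.

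In glycolysis, 2 of 21 tested genes were higher and 3 lower (median -0.01). Of the 3 phosphofructokinase genes, muscle-type Pfkm rose 2.02-fold, at 93.4 ± 7.13 normalized counts in the KD libraries against 45.8 ± 5 in the controls, and platelet-type Pfkp fell 1.47-fold, at 219.9 ± 22.5 in the KD libraries against 323.9 ± 4.96 in the controls. Liver-type Pfkl, named outside the rule, stood at 378.3 ± 23 in the KD libraries against 338.5 ± 42.9 in the controls and did not pass (SD, n = 2 each; limma adjusted p = 0.296). Pfkfb3, which makes the fructose 2,6-bisphosphate that activates phosphofructokinase, rose 1.74-fold. Eno1 fell 1.31-fold, a value that is uncertain because near-identical copies can share its reads. Pkm, the pyruvate kinase of most tissues, named outside the rule, stood at 2294 and 2217 in the KD libraries against 2464 and 2395 in the controls and did not pass (limma adjusted p = 0.439).

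In the pentose phosphate pathway, 2 of 12 tested genes were higher and 4 lower (median -0.15; 2 and 1 with library size only). DESeq2 called 0 higher and 2 lower, with 2 higher and 4 lower at its unadjusted p below 0.05, and edgeR called 2 higher and 3 lower. The entry enzyme gene G6pdx fell 1.37-fold and Prps2, which makes phosphoribosyl pyrophosphate, 1.60-fold, while H6pd, the form of the endoplasmic reticulum, rose 1.29-fold. Tktl1, a transketolase-like gene, was called higher from 12 and 28 reads in the KD libraries and 4 and 0 in the controls. It passed the filter on low counts only through the KD libraries. Of the genes named from these lists of sugar enzymes, Pfkm was called in each alternative run. Without knockdown 1, Hkdc1, Slc2a1, Hk1, Pfkfb3, Eno1, G6pdx and H6pd did not pass, and without knockdown 2, Hk2, Hkdc1, Slc2a1, Hk1, Pfkp, Eno1, Prps2, G6pdx, Tktl1 and H6pd did not. Without a variance trend, Hk2, Slc2a1, Hk1, Pfkp, Eno1, Prps2, G6pdx, Tktl1 and H6pd did not. Slc2a1 and H6pd also failed after GC correction and with no filter on low counts, Slc2a1 with a pseudocount of 3, Eno1 and G6pdx with library size only, and Eno1 and H6pd in DESeq2, which gave Hkdc1 and Tktl1 no adjusted p.

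Of 17 tested genes known in liver as ChREBP targets of fat synthesis and sugar use, 3 were higher and 3 lower (median 0.002; 4 and 1 with library size only). DESeq2 called 0 higher and 3 lower, with 3 higher and 4 lower at its unadjusted p below 0.05, and edgeR called 2 higher and 3 lower. Scd1, the stearoyl-CoA desaturase, fell 2.04-fold, to 79.6 ± 4.79 normalized counts in the KD libraries against 164.9 ± 31 in the controls (limma adjusted p = 0.00536), and the elongase gene Elovl6 fell 1.31-fold. Thrsp, a regulator of fat synthesis, rose at a low level, with 6.16 ± 0.544 in the KD libraries against 2.45 ± 0.59 in the controls. Its ratio of means was 2.51, and its fold on the log2(value + 1) scale was 2.08. Dgat2, which makes triglyceride, rose 1.67-fold on that scale. Thrsp, Elovl6 and Dgat2 did not pass without knockdown 1 or knockdown 2, Thrsp and Dgat2 did not in DESeq2, and Elovl6 did not with library size only or without a variance trend. The Scd1 call held in each alternative run.

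Among 16 tested genes of glycogen and of hexosamine synthesis, 2 were higher and 2 lower (median 0.13). The higher genes were both glycogen-targeting subunits of protein phosphatase 1. Ppp1r3c stood at 7.99 and 8.41 normalized counts in the KD libraries against 2.13 and 2.04 in the controls (limma adjusted p = 0.00468). Its ratio of means was 3.93, and its fold on the log2(value + 1) scale was 2.98. Ppp1r3b stood at 24.8 and 19.3 in the KD libraries against 9.86 and 5.2 in the controls (limma adjusted p = 0.0135). Its ratio of means was 2.93, and its fold on the log2(value + 1) scale was 2.79. The lower genes, Uap1 and Pgm3, act in the synthesis of UDP-N-acetylglucosamine, the substrate of Ogt, and fell 1.55-fold and 1.49-fold. Uap1 and Pgm3 did not pass without knockdown 1 or knockdown 2, while both phosphatase subunits were called in each alternative run.

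Of 13 tested Krüppel-like factors other than Klf10, 4 fell and 0 rose in limma under each scaling, in edgeR, in DESeq2 and at an unadjusted p below 0.05 (median -0.10 as deposited and 0.03 with library size only). The called share was 30.8%, against 23.0% of all genes (10.5% higher and 12.4% lower). Klf12 fell 2.69-fold, Klf15 1.94-fold, Klf4, a factor of naive pluripotency, 1.81-fold and Klf6 1.61-fold. Klf15 did not pass without knockdown 2. Without control 1, 7 fell, and without control 2, 4 fell and 2 rose.

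**Figure D4:**
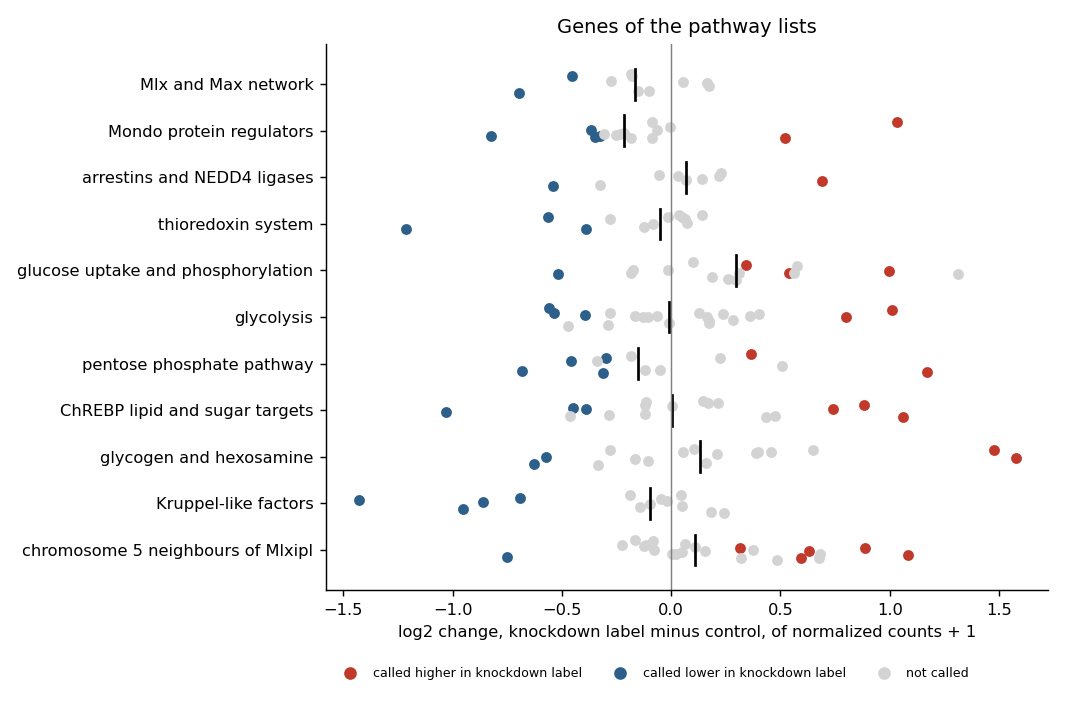
Log2 change (horizontal axis, KD libraries minus controls, of normalized counts + 1) of the 163 tested genes in 11 lists, one point per gene, red or blue where limma called it higher or lower and grey where it did not; black lines are list medians. List medians lie between -0.22 and 0.30, and called genes lie on both sides in 8 of the 11 lists.

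Mlxipl lies on chromosome 5 (GRCm38, 135089890 to 135138382, plus strand, ENSMUSG00000005373), in the block whose human counterpart is deleted in Williams syndrome. Of 23 tested genes of this block, 5 were higher and 1 lower (median 0.11; 7 and 1 with library size only, 2 and 1 in DESeq2). The genes directly beside it, Vps37d (log2 change 0.68, limma adjusted p = 0.0783) and Tbl2 (log2 change 0.11, limma adjusted p = 0.402), did not pass. Stx1a, 4 tested genes upstream, rose 1.85-fold and Abhd11 1.55-fold, and Ncf1 was called higher from 17 and 23 reads in the KD libraries and 1 and 2 in the controls. Ncf1 passed the filter on low counts only through the KD libraries. Eif4h, a cofactor of the eIF4A helicases, fell 1.68-fold, to 341.6 ± 16.7 normalized counts in the KD libraries against 576.1 ± 36.2 in the controls (limma adjusted p = 0.00399). Among the 10 tested genes on each side, 2 of 20 were higher (Abhd11 and Stx1a) and 1 lower (Hip1 at -0.86, named after its value was seen), with log2 changes between -0.86 and 0.89. Stx1a, Abhd11 and Ncf1 did not pass without knockdown 1 or knockdown 2, and Abhd11 did not without a variance trend.

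**Figure D5:**
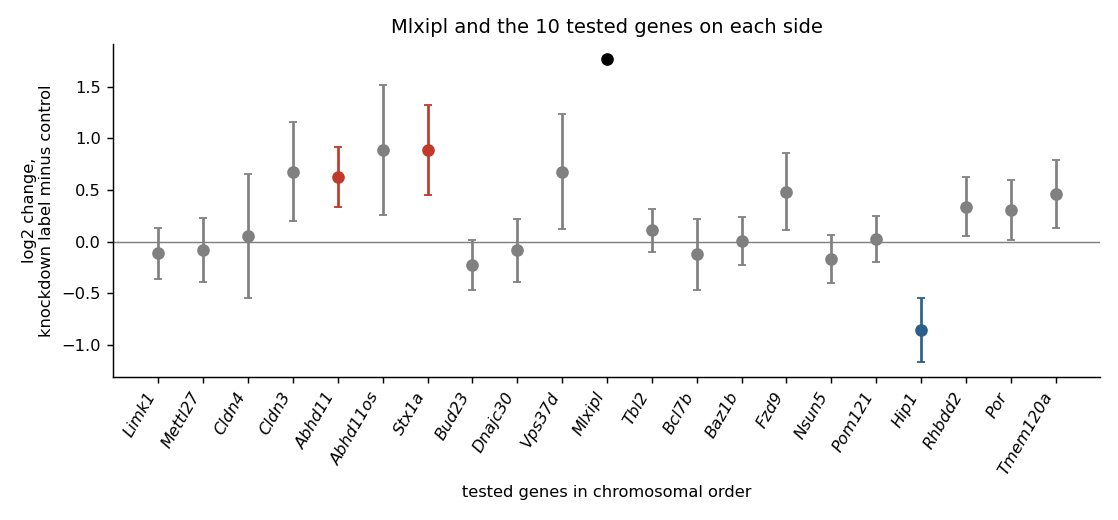
Log2 change (vertical axis, KD libraries minus controls) of Mlxipl (black, with no interval) and, with 95% limma intervals, of the 10 tested genes on each side of it, in chromosomal order; red genes were called higher, blue lower and grey not called. Mlxipl stands at 1.77 and the others between -0.86 and 0.89.

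Defining markers of the cell types in which ChREBP is best known, such as Alb, Ins1, Ins2 and Fabp4, had 0 reads in every library, while some other markers of these types were detected. The summed level of 8 hepatocyte markers was 3.02 and 5.61 normalized counts in the KD libraries, against 2.43 and 1.36 in the controls, mostly from Apob, and 4 of the 8 had 0 reads throughout. The 8 adipocyte markers summed to 2.04 and 1.64 in the KD libraries, against 0.294 and 0.226 in the controls, with Fabp4, Lep and Cfd at 0 reads. Cidec, the 1 tested gene, was called higher from 17 and 14 reads in the KD libraries and 3 and 0 in the controls. It passed the filter on low counts only through the KD libraries. The 8 beta cell markers summed to 10 and 9.34 in the KD libraries, against 5.15 and 4.98 in the controls, and the factor genes Mafa and Pdx1, both called higher, made up most of this. Mafa stood at 7.28 and 7.55 in the KD libraries, against 4.12 and 4.3 in the controls. Pdx1 had 27 and 21 reads in the KD libraries and 9 and 3 in the controls, and passed the filter only through the KD libraries. Neither gene passed in DESeq2, after GC correction or without knockdown 1 or knockdown 2, and Mafa did not with no filter on low counts. The 9 fibroblast markers summed to 46.1 and 47.5 in the KD libraries, against 28.3 and 25.6 in the controls, with the receptor gene Pdgfrb (log2 change 0.93) and 1 other of 5 tested called higher and Dcn and Lum at 0 reads. Cidec and Pdgfrb did not pass without knockdown 1 or knockdown 2, and DESeq2 gave Cidec no adjusted p. The 9 trophectoderm markers summed to 136 and 149.7 in the KD libraries, against 113 and 79.9 in the controls, with 2 of 8 tested genes higher, and the 8 primitive endoderm markers to 41.6 and 43.4 in the KD libraries, against 34.4 and 42.1 in the controls, with 0 of 7 called by limma or below an unadjusted p of 0.05. The 8 stem cell markers summed to 8280 and 7986 in the KD libraries, against 10878 and 10120 in the controls, with 3 of 8 lower. The part of these markers in the Mlxipl difference was not tested. Over all genes tested, 10.5% were called higher and 12.4% lower.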

How the data were processed

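RNA of 4 samples was measured. The tools named, per the submitters' processing notes, are edgeR 3.26.8, HTSeq 0.11.2, Bowtie2 2.3.4.3 and SAMtools 1.9, and the build is mm9. No source used here gives their roles, the annotation release or the strand setting. The deposited signal is, per its values, a gene's reads scaled by an effective library size: 100% of values were whole multiples of 1 read (tolerance 0.001). Per the file headers, the authors also deposited a log2 fold change and log2 CPM, a score (likelihood ratio), and for each gene the p-value and its FDR.

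Groups came from the titles. limma 3.58.1 (R 4.3.3) with a variance trend was applied to log2(signal + 1), so changes of low genes are understated; 14890 genes passed edgeR 4.0.16's filterByExpr on recovered reads. Tests were two-sided, Benjamini-Hochberg adjusted over all of them, called below 0.05. An exact permutation of 2 against 2 cannot reach that. Alternatives used edgeR, DESeq2 1.42.0, other scalings, pseudocounts, filters, GC content, a replicate block and left-out libraries. The script was tested on simulated data. Libraries of a group were not duplicates (chi-square over its degrees of freedom, from recovered reads, 1.95 for KD and 12.8 for control). Poisson intervals cover counting error only. The limma intervals rest on the spread between libraries, with the variance shared across genes.

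Symbols are the table's; 32590 genes matched GENCODE M21 (GRCm38), which gave exon lengths, GC content and coordinates; none was converted from mm9. Members and lists were chosen with earlier results of these data known. Named genes were the members, Eif4a2, up to 4 called genes of smallest p in each list, the 2 highest markers of each marker list and the 5 genes most like Mlxipl, of which 1 is not reported here; further ones are markers or neighbours of Mlxipl given with their list or place.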

Additional observations from a re-analysis of the deposited data

How the results depend on the processing

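As a log2 change, Mlxipl lay between 1.49 (pseudocount of 3) and 1.95 (without control 1) over 14 alternatives. Mlx turned to 0.0076 with library size only, and Txnip to 0.12 with library size only, 0.030 with upper-quartile scaling, 0.053 after GC correction, 0.013 without knockdown 2 and 0.38 without control 1 (-0.40 without control 2); the causes were not tested. Over all genes, 3418 were called (1567 higher, 1851 lower), against 2204 with DESeq2 (969 higher) and 1932 without a variance trend (864 lower); library size only shifted the median of all genes by 0.11, called 996 lower and made 68.4% of calls higher, against 45.8% as deposited. Of the 8 members other than Mlxipl, 1 was called, against 0 in DESeq2, with no filter on low counts and without a variance trend. Of the genes in the 11 lists, 48 were called, against 22 without a variance trend. Without each library in turn, calls ranged from 653 to 7724 over all genes (259 to 3784 higher, 394 to 3940 lower), from 0 to 5 members and from 12 to 95 list genes. Fits without a control take their spread from the KD libraries alone, which lie closer together, and those without a knockdown library from the controls alone, with the lone library assumed to vary alike. Replicate numbers are only numbers here (correlation of same-numbered deviations 0.0356); with the replicate block 4632 genes were called, with 1 of the 8 members and 57 list genes. The shallow control 2 limits Pklr, where 19 reads gave a 95% interval from 2.59 to 6.71 normalized counts.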
